A study of Mus musculus with 2 samples.

Results

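The hypoxia-state cells described here are tumor cells of TKO1, a mouse small cell lung tumor, that carried transcripts of genes raised by low oxygen. They were chosen from the counts themselves. A cell barcode was a member when it had at least 3 unique molecular identifiers (UMIs, each standing for 1 captured transcript) summed over *Bnip3*, *Ndrg1* and *Adm*. It also had to have more than 500 detected genes, fewer than 10 UMIs of the club cell gene *Scgb1a1*, and fewer than 5 UMIs summed over 6 macrophage genes (*Lyz2*, *C1qa*, *C1qb*, *C1qc*, *Tyrobp* and *Fcer1g*). These limits held for 3005 of the 4514 barcodes of TKO1, and 692 of them were members, which is 23.03% (exact Clopper-Pearson 95% interval 21.5 to 24.6). The series holds 8330 barcodes in all. The comparison cells were the 1279 cells of TKO1 within the same limits that had 0 UMIs of the 3 genes. The remaining 1034 cells had 1 or 2 UMIs and are described as intermediate.

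Single-cell transcriptomes were read from 1 tumor of each of 2 mice, TKO1 and TKO2. Both mice lacked *Rb* (*Rb1*), *Trp53* and *Rbl2* (each -/-) in the tumor, and carried a Rosa26 reporter labelled as membrane-Tomato or membrane-GFP. Their background was a mix of the C57BL/6, 129/SVJ and 129/SvOla strains, their age was 8 to 9 months, and 7 months had passed since adenovirus carrying Cre under the CMV promoter was given. Cre under CMV is active in any infected cell type, so the cell of origin is not fixed by the model, and a tumor dissected whole also brings lung cells with it. Live cells were sorted by dye exclusion, and the methods name no gate on the reporter. Each tumor has 1 library and no replicate. Members and comparison cells differ by the rule that chose them, so they were not tested against each other, within a tumor or over both, and no p-value is given. All intervals are exact 95% counting intervals, and they and the floor of 3 counts used for a 0 cover counting error only, not the spread between animals. Because the cells were chosen on measured UMIs, differences between members and comparison cells are descriptions of this library. TKO2, in which the same rule was applied separately, gives a second set of values.

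Cells sense oxygen through prolyl hydroxylases, which mark the hypoxia-inducible factors (HIFs) for destruction by the Vhl ubiquitin ligase while oxygen is present. When oxygen is short the HIFs remain, bind a short DNA core in the control regions of their targets, and raise genes for glucose uptake, glycolysis, blood vessel growth and removal of mitochondria. Solid tumors that outgrow their vessels commonly contain such cells. Small cell lung cancer is a neuroendocrine tumor, and its cells normally carry markers such as *Calca* and *Chga*.

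Promoter sequences are shown because the members were chosen on HIF target genes. The HIF core was searched as ACGTG and GCGTG on both strands, in the 300 bases from 250 before to 50 after each RefSeq start (GRCm38.p6). The windows below are the part before the start that holds the matches, for the rule genes and the 4 hypoxia list genes with the largest TKO1 ratio that had an entry. Capitals mark matches, and CACGTG is read as a match on each strand.
*Bnip3* (chr7:138909517-138909643, minus strand): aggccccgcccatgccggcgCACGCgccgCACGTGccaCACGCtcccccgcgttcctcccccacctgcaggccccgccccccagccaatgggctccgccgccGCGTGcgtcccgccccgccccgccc
*Adm* (chr7:110627547-110627627, plus strand): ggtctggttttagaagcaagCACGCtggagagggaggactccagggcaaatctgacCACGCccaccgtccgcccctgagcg
*Selenbp1* (chr3:94932859-94932930, plus strand): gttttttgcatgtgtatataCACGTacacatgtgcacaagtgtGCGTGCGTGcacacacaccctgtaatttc
*Stc2* (chr11:31370268-31370311, minus strand): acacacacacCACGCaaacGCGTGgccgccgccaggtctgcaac
*Pgk1* (chrX:106186930-106186993, plus strand): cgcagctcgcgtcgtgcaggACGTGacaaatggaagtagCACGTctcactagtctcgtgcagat
*Egln3* (chr12:54204079-54204123, minus strand): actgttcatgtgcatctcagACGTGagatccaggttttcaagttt
The *Bnip3* promoter held 5 matches, the nearest starting 35 bases before the start. *Adm* and *Pgk1* held 2 each, and *Egln3* held 1. Of 32851 promoters in the RefSeq table, 43.8% held at least 1 match. The hypoxia list had 49 promoters of 35 matched genes, and 77.6% held one, against 68.7% of ribosomal protein promoters and 64.7% of promoters of nuclear respiratory chain genes. A match describes the letters in the window and is not evidence of binding. *Ndrg1*, *Ero1l* and *Bhlhe40* had no entry.

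The depth of the groups differed. Members had a median of 1387 UMIs and 846 detected genes per cell and 1142060 UMIs in all. Comparison cells had medians of 1117 UMIs and 736 genes, and 1619316 UMIs. A rule that asks for 3 UMIs takes deeper cells, so shares of cells and per-cell values are also given with every cell thinned to 1000 UMIs, which kept 560 members and 823 comparison cells. At that depth both groups had nearly the same number of genes per cell (medians 684 and 686). Mitochondria-encoded transcripts made up a median of 0.49% of a member's UMIs and 0.58% of a comparison cell's. Levels are CPM, a gene's UMIs summed over the cells of a group and scaled to a group total of 1000000 UMIs. They are not divided by gene length, since the library counts 1 end of each transcript. The libraries shared 22 cell barcodes, and 3 of these were TKO1 members.

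The rule was carried mainly by *Bnip3*, which encodes a mitochondrial protein that promotes mitophagy. Of the 3443 rule UMIs in members, 3188 (92.6%) were *Bnip3*, and 643 members (92.9%) would have qualified on *Bnip3* alone. *Ndrg1*, a stress-responsive gene, was detected in 106 members, and *Adm*, which encodes the vessel-dilating peptide adrenomedullin, in 77. Only 11 members had all 3. *Bnip3* reached 2791 CPM in members and 920 CPM in intermediate cells, and both other genes stayed near 100 (*Ndrg1* 126 CPM, *Adm* 97.2 CPM). The highest member had 18 rule UMIs. On either side of the threshold, the 228 cells with exactly 3 UMIs had 9816 CPM of the other hypoxia genes (9481 to 10160) and the 382 cells with exactly 2 UMIs had 8348 CPM (8109 to 8591), against 4751 CPM at 0 UMIs and 14307 CPM in the 37 cells with 10 or more. The level was graded across the threshold.

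**Figure D1:**
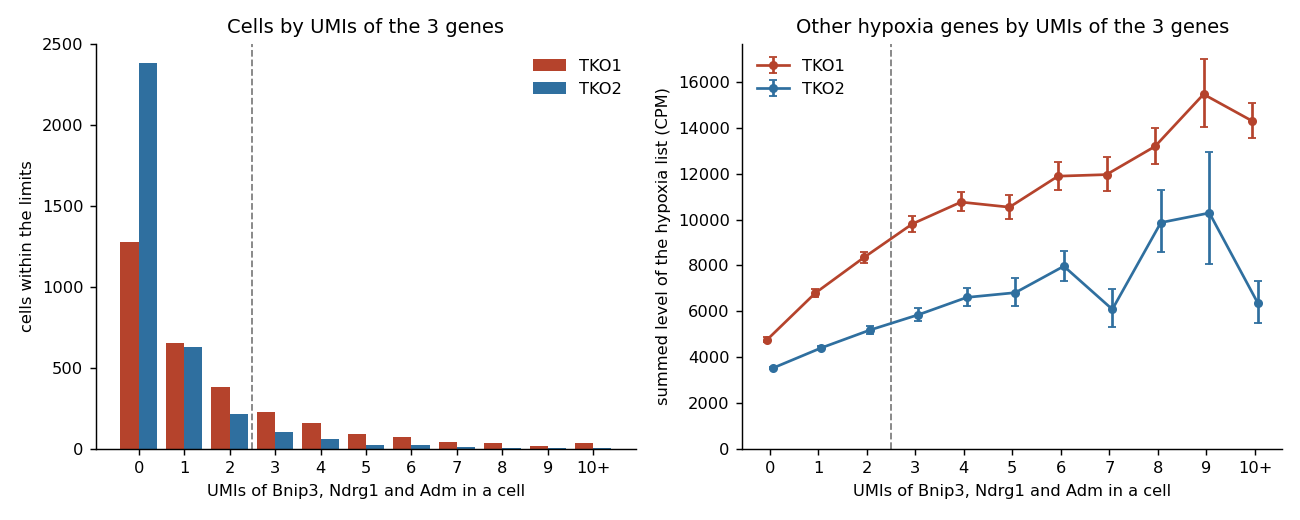
Cells within the limits (left, number of cells) and summed CPM of the hypoxia list without the 3 rule genes (right, exact 95% Poisson intervals), by UMIs of *Bnip3*, *Ndrg1* and *Adm* per cell in TKO1 and TKO2. The dashed line marks the rule's threshold, and the TKO1 level runs from 4751 CPM at 0 UMIs to 14307 CPM at 10 or more.

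Each rule gene was also measured in cells chosen by the other genes alone, at a threshold of 2 UMIs. The genes had been picked together as markers, so these values describe how they go together and are not independent support for the label. *Adm* had 111 UMIs in the 1064 TKO1 cells chosen by *Bnip3* and *Ndrg1* and 5 UMIs in the 1284 cells with neither, a log2 ratio of 4.42 (3.15 to 6.07). *Ndrg1* in cells chosen by *Bnip3* and *Adm* gave 2.19 (1.60 to 2.82). *Bnip3* in the 59 cells chosen by *Ndrg1* and *Adm* had 2568 CPM against 967 CPM, a log2 ratio of 1.41 (1.23 to 1.59). In TKO2 the same ratios were 2.64, 1.57 and 1.77. The cells chosen with *Bnip3* in the rule are chosen mostly by *Bnip3*. Across 2161 TKO1 cells at 1000 UMIs the Pearson r was 0.17 between *Bnip3* and *Adm*, 0.10 between *Bnip3* and *Ndrg1* and 0.05 between *Ndrg1* and *Adm*, all weak in such sparse counts. *Nupr1*, a marker of these cells picked with the rule genes but left out of the rule, had 1968 CPM in members and 606 CPM in comparison cells, a log2 ratio of 1.70 (1.59 to 1.81). *Nupr1* was also present in *Scgb1a1*-high cells, at 1291 CPM, and without cells with a UMI of *Scgb1a1* or a macrophage gene its ratio was 1.66.

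The hypoxia list holds 41 other genes taken as HIF targets, among them *Selenbp1*. It was chosen with earlier results of these data known, so its counts are not independent support for the label. Of the 41, 29 had at least 30 UMIs over members and comparison cells of TKO1. Of these, 20 were at least 2-fold higher in members and 0 at least 2-fold lower, and 28 of 29 ratios lay above 0. Under the rule without *Bnip3*, which chose 59 cells, 10 of 30 were at least 2-fold higher, beside 888 of all 9437 genes tested. The comparison cells of that rule were 2781 cells with 0 UMIs of *Ndrg1* and *Adm*. *Bnip3* was at 967 CPM in them, so they were not free of all 3 genes. Over all 8467 genes with at least 30 UMIs under the main rule, 2.63% were at least 2-fold higher and 2.69% at least 2-fold lower. The median log2 ratio was 1.29 for the list and -0.01 for all genes. The list summed to 11239 CPM in members (11046 to 11436) and 4751 CPM in comparison cells, and *Ldha* supplied 46.4% of the UMIs. Per cell at 1000 UMIs, members held 0 to 31 UMIs of the list with a median of 11, and comparison cells 0 to 16 with a median of 4. The groups overlapped, and 6.20% of comparison cells were at or above the members' median. Of the 12 list genes under 30 UMIs, 7 had 0 UMIs in members, and only 4 of these also had 0 in comparison cells. Among the 7 were *Car9*, *Car12*, *Angptl4* and *Lox*, which are often used as hypoxia markers. By the floor of 3 UMIs used for a count of 0, up to 2.63 CPM is allowed in the member total, so low levels of these genes were not detectable.

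The genes that code for the oxygen sensing itself were split. *Egln3*, a prolyl hydroxylase that is itself a HIF target, had 355 CPM in members (406 UMIs) and 102 CPM in comparison cells (165 UMIs), a log2 ratio of 1.80 (1.54 to 2.07). It was found in 27.9% of members and 8.51% of comparison cells at 1000 UMIs, and in 39.6% and 10.7% without thinning. The 78 macrophage-marker cells had a median of 1319.5 UMIs, and in the 66 of them with enough UMIs for thinning it was found in 3.03%. *Egln1*, the main hydroxylase of normal tissue, was at 1.19 (0.57 to 1.83) on 94 UMIs. *Hif1a* itself had 90.2 CPM in members and 107 CPM in comparison cells, -0.25 (-0.62 to 0.11), so its transcript level did not differ beyond the counting interval. *Vhl* was lower in members, with 7 UMIs against 37 (log2 ratio -1.90, -3.31 to -0.71). In TKO2, *Vhl* was at 0.20 (-1.002 to 1.23).

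*Selenbp1*, a methanethiol oxidase, had the largest ratio of any gene over 100 CPM outside the rule genes. It had 271 CPM in members (309 UMIs), 116 CPM in intermediate cells and 43.2 CPM in comparison cells (70 UMIs), a log2 ratio of 2.65 (2.27 to 3.04). *Selenbp1* was also abundant in the 110 *Scgb1a1*-high cells of this library, at 2227 CPM. The summed club cell list was at 280 CPM in members and 343 CPM in comparison cells. *Scgb1a1*, which the limits cap in both groups, supplied 69.4% of its UMIs, so this sum is partly set by the selection. Without any cell carrying a UMI of *Scgb1a1* or of a macrophage gene the *Selenbp1* ratio was 2.80. The source of the *Selenbp1* UMIs was not tested. *Bhlhe40*, a transcriptional repressor induced by HIF, was at 2.20 (1.75 to 2.68). *Ero1l*, the oxidase that drives disulfide formation in the endoplasmic reticulum, was at 2.07 (1.67 to 2.48). *P4ha1* and *P4ha2*, subunits of the collagen prolyl hydroxylase, were at 1.61 and 1.44. *Vegfa*, the main growth signal for vessels, had 68 UMIs in members against 36 (1.42, 0.82 to 2.05), the only gene of 6 tested angiogenic ligands and receptors that was at least 2-fold higher. *Ddit4*, an inhibitor of mTORC1 signalling, was at 1.31, and *Bnip3l*, a relative of *Bnip3* in mitophagy, at 0.93 (0.78 to 1.07).

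**Figure D2:**
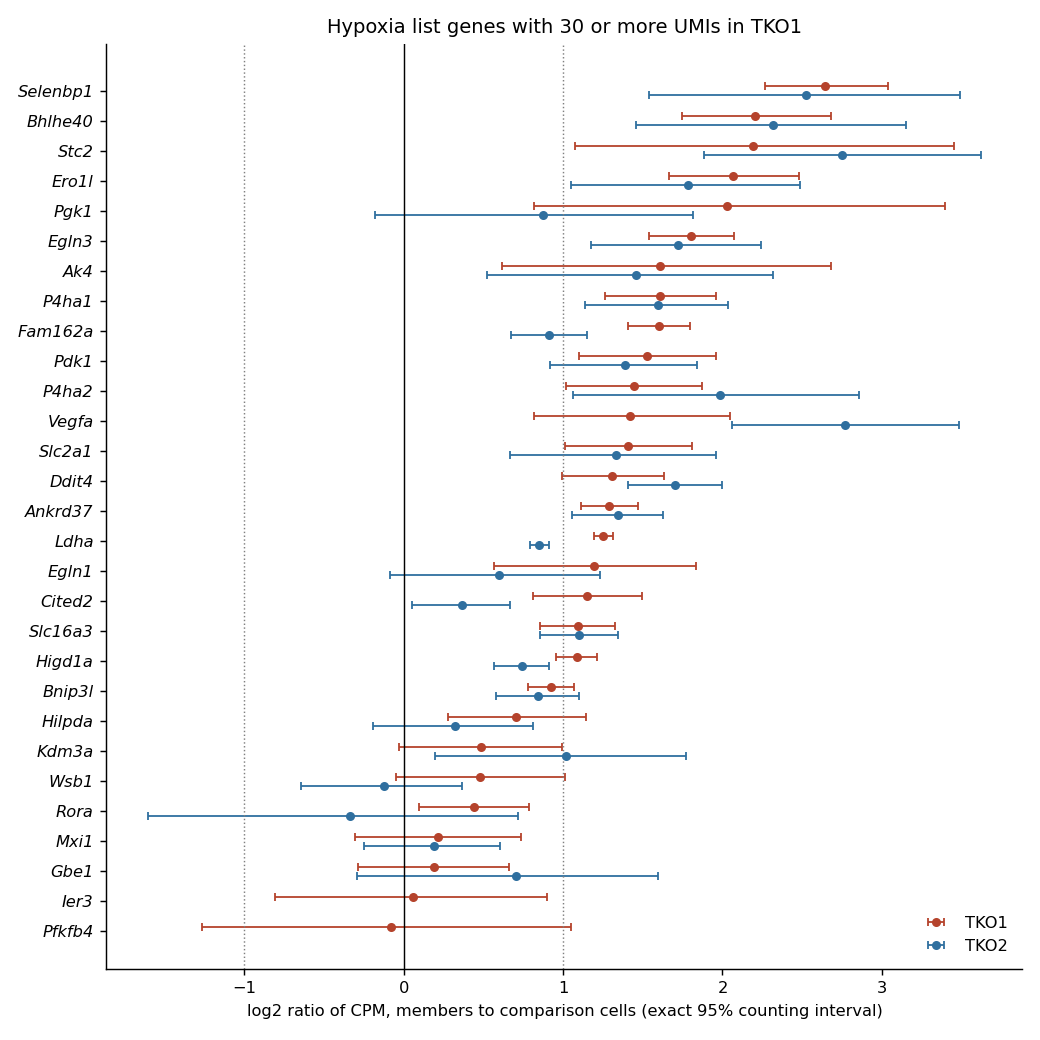
Log2 ratio of CPM, members to comparison cells, for the 29 hypoxia list genes with at least 30 UMIs in TKO1, with exact 95% counting intervals and dotted lines at 2-fold. Points of TKO2 are drawn where that gene also had 30 UMIs there, and 28 of the 29 TKO1 points lie above 0.

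Glycolytic genes were higher from glucose uptake to lactate export. Of 18 genes on the list, 14 were tested, 10 were at least 2-fold higher, and none lay below 0 (median log2 ratio 1.29). Under the rule without *Bnip3* the median was 0.76. With each cell thinned to 1000 UMIs first, and members then taken at 2 or more rule UMIs, it was 0.98. At 2 UMIs without thinning it was 1.15. The list shares 4 genes with the hypoxia list (*Hk2*, *Ldha*, *Pgk1* and *Slc2a1*), so the lists are not separate evidence. The list summed to 18657 CPM in members and 7711 CPM in comparison cells. *Aldoa*, which splits fructose bisphosphate, had 5923 CPM in members, 3937 CPM in intermediate cells and 2147 CPM in comparison cells, a log2 ratio of 1.46 (1.40 to 1.52). *Ldha*, which makes lactate, had 5233 against 2197 CPM, a ratio of 1.25 (1.19 to 1.31). *Pfkp*, a form of phosphofructokinase, was at 1.66, and *Slc2a1*, the glucose transporter, at 1.41 (1.01 to 1.81). *Slc16a3*, which exports lactate, was at 1.09. *Pdk1*, the kinase that holds pyruvate back from the mitochondrion, was at 1.52 (1.10 to 1.96). *Gapdh*, *Pgk1*, *Ldha*, *Eno1*, *Tpi1*, *Pkm* and *Aldoa* have processed pseudogenes that can take or lose reads in counting, and their levels are uncertain for that reason. *Pgk1* had only 23 UMIs in members.

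Respiratory chain genes lay slightly the other way. Of 75 tested nuclear genes of the chain and ATP synthase, 62 lay below 0, with a median of -0.13, and 1 was at least 2-fold lower. Their sum was 39688 CPM in members against 43554 CPM, a log2 ratio of -0.13 (-0.15 to -0.12). The mitochondria-encoded list was at -0.25. Over all genes tested, 4335 of 8467 ratios lay below 0. Of 16 tested autophagy genes 11 lay above 0, 0 were at least 2-fold higher and 1 lower (median 0.20). Their sum, which holds *Bnip3l*, was at 0.29 (0.23 to 0.34). *Map1lc3a*, which marks autophagosomes, was at -0.01.

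Some genes of the integrated stress response were higher together with the hypoxia genes. This pathway slows translation under amino acid, folding or oxygen stress and acts through the factors ATF4 and CHOP. Of 18 tested targets 5 were at least 2-fold higher and 1 lower, with a median of 0.42. The list shares *Stc2* and *Vldlr* with the hypoxia list, so the lists are not separate evidence. It also holds *Nupr1*, which was picked as a marker with the rule genes. *Ddit3*, which encodes CHOP, had 222 UMIs in members against 75, a log2 ratio of 2.07 (1.69 to 2.47). *Trib3*, a CHOP target, was at 2.76 (1.88 to 3.74), *Nupr1*, a stress-induced chromatin protein, at 1.70, and *Stc2*, a secreted glycoprotein, at 2.19. Of the 18, 14 lay above 0. *Asns*, which makes asparagine, was at 0.12, *Mthfd2*, of folate metabolism, at 0.08, and *Phgdh*, of serine synthesis, at -1.25 on 35 UMIs. Of 16 endoplasmic reticulum chaperones 0 were at least 2-fold higher or lower, with a median of 0.11. Without the cells that had a UMI of *Ddit3* or *Trib3*, the stress response median was 0.10 and the hypoxia list median 1.17. *Ddit3* and *Trib3* are themselves genes of this response, so the lower stress response median is partly set by the removal. *Mt1* and *Mt2*, metal-binding metallothioneins, were at 1.37 and 0.87, while *Mt3* had 223 and 224 CPM. The metallothionein median was 0.87, and 0.45 under the rule without *Bnip3*.

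Neuroendocrine markers were at similar levels in members and comparison cells. Of 23 tested neuroendocrine markers 0 were at least 2-fold higher or lower, with a median of -0.05. *Chga*, a protein of secretory granules, was found in 53.9% of members and 49.1% of comparison cells at 1000 UMIs (68.4% and 56.3% without thinning), and in 4.55% of macrophage-marker cells. *Elf3*, an epithelial factor, was at 0.86 (0.63 to 1.08). Transcripts of the deleted genes were detected in both groups: *Rb1* had 82.3 against 70.4 CPM, *Trp53* 38.5 against 53.7 CPM, and *Rbl2* 6 against 16 UMIs. These counts come from the transcript end and do not check a deletion elsewhere in the gene. Of 12 tested keratin and adhesion genes, 1 was at least 2-fold higher, the keratin gene *Krt19* (1.41).

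Cell division genes were lower in members of TKO1. All 30 tested mitosis genes lay below 0, 9 were at least 2-fold lower, and the median was -0.85. With each cell thinned to 1000 UMIs first, and members then taken at 2 or more rule UMIs, the median was -1.57. At 2 UMIs without thinning it was -0.78, and under the rule without *Bnip3* -0.48. *Ccnb1* and *Ccnb2*, the cyclins of mitotic entry, were at -1.22 (-1.63 to -0.83) and -1.29 (-1.74 to -0.85). *Ube2c*, which helps destroy cyclins, had 133 CPM in members and 305 CPM in comparison cells. In the S phase list 26 of 28 lay below 0 (median -0.51), and *Rrm2*, which makes the building blocks of DNA, was at -1.39. The share of cells with a *Top2a* UMI was 8.82% of members and 13.3% of comparison cells without thinning, and 6.43% and 12.3% at 1000 UMIs. For *Mki67*, another proliferation gene, the shares were 6.503% (4.78 to 8.60) and 7.90% (6.48 to 9.51) without thinning, with overlapping intervals, and 5.54% (3.79 to 7.77) and 7.78% (6.04 to 9.82) at 1000 UMIs. Of 7 genes for inhibitors of cyclin-dependent kinases, 5 lay below 0 and 0 were at least 2-fold higher or lower (median -0.21). *Cdkn1a*, one of these brakes on the cell cycle, was at 0.77 (0.64 to 0.91).

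Among the 12 genes with the lowest ratios were some on neither cell cycle list. *Pabpc4*, a poly(A)-binding protein, had 36.8 CPM in members and 224 CPM in comparison cells (-2.60, -3.10 to -2.14), *Mycl*, a Myc family oncogene, 79.7 and 325 CPM (-2.03), and *Ppie*, a splicing-associated isomerase, 175 and 556 CPM (-1.67). These 3 lie together on chromosome 4 of GRCm38 (GENCODE M21): *Mycl* from 122995652 to 123002485, *Ppie* from 123127115 to 123139951 and *Pabpc4* from 123262351 to 123298925. At least 3 *Mycl* UMIs were found in 54 comparison cells (4.22%) and 8 members (1.16%), and without these cells the ratios were -1.10 for *Mycl*, -2.07 for *Pabpc4* and -1.10 for *Ppie*. Without cells with a UMI of the mitosis list, *Mycl* was at -0.73, *Ppie* at -0.51 and *Pabpc4* at -2.05. That removal took 61.3% of members and 68.1% of comparison cells, and left 268 and 408 cells. *Anxa1*, a lipid-binding protein, was at -2.19 and *Bex1*, a neural adaptor, at -1.83. With each cell thinned to 1000 UMIs first, and members then taken at 2 or more rule UMIs, these were at -1.30 and -0.90. At 2 UMIs without thinning they were at -1.63 and -1.22. Interferon response genes were mostly lower too, with 10 of 11 below 0 and 3 at least 2-fold lower (*Rtp4*, *Ifi27l2a* and *Ifitm3*). The summed interferon list was at -0.47 (-0.57 to -0.37). In TKO2 it was at 0.16 (-0.07 to 0.38), and 0 of 3 tested genes were at least 2-fold lower.

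**Figure D3:**
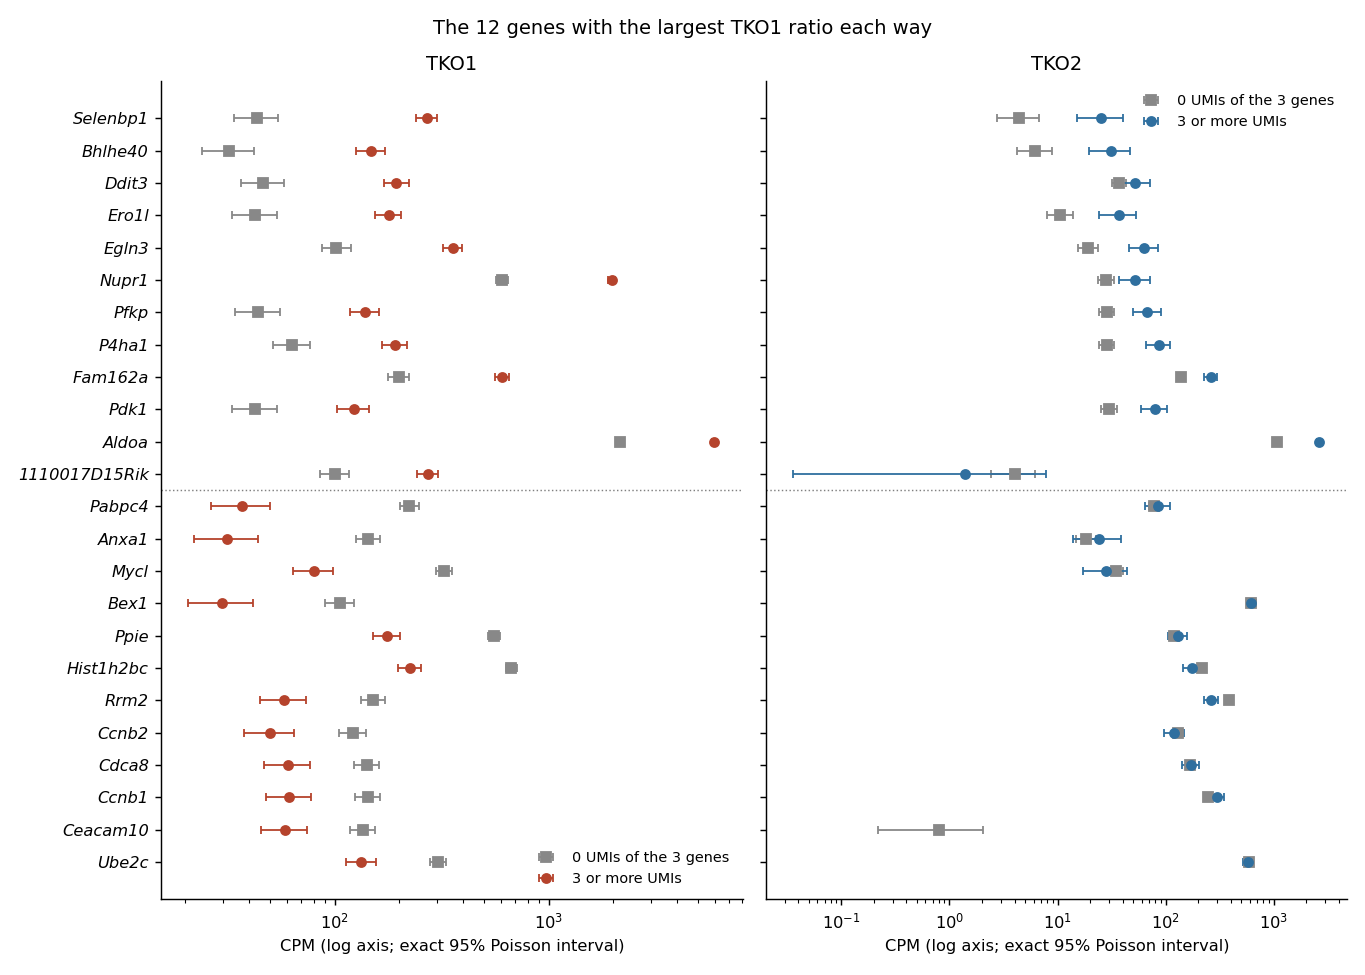
CPM (log axis, exact 95% Poisson intervals) of the 12 genes with the largest TKO1 ratio each way, in members (circles) and comparison cells (squares) of TKO1 and TKO2; *Ceacam10* had 0 UMIs in TKO2 members and has no circle there. The upper genes are separated in both tumors apart from *1110017D15Rik* and *Ddit3*, whose intervals overlap in TKO2, whereas the lower genes are separated in TKO1 and mostly overlap in TKO2.

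Markers of ciliated cells moved with membership. Of 25 ciliated genes 10 were tested, 7 were at least 2-fold higher and none lay below 0 (median 1.496). With a minimum of 1 UMI, 8 of 22 were at least 2-fold higher (median 0.83), beside 928 of all 14562 genes. Under the rule without *Bnip3* 3 of 12 were (median 0.48), beside 888 of 9437. The list summed to 968 CPM in members (911 to 1026) and 411 CPM in comparison cells (381 to 444), and its most abundant gene was *1110017D15Rik* (272 and 100 CPM). *Foxj1*, the master factor of motile cilia, was found in 7.32% of members and 2.67% of comparison cells at 1000 UMIs (11.7% and 3.28% without thinning), and in 0 of 66 macrophage-marker cells, which by the floor of 3 cells allows up to 4.55% of cells with a UMI. *Hydin*, *Lrrc23* and *Sec14l3* had 0 UMIs in members. Without cells with 3 or more ciliated UMIs, which removed 145 members and 67 comparison cells, the hypoxia list median was 1.27. Of its 27 tested genes 19 were at least 2-fold higher, beside 197 of all 8070 genes. The glycolysis median was then 1.24, that of the stress response 0.39, that of the metallothioneins 0.85 and that of the mitosis list -0.70, and *Ccnb1* was at -0.93, no longer 2-fold lower. The ciliated median itself was then 0.81, with 1 of 7 tested genes at least 2-fold higher. The other cell type lists were low in members: macrophage genes summed to 77.1 CPM against 124 CPM, lymphoid genes to 10.51 against 54.3 CPM, endothelial genes to 7.00 against 3.09 CPM, and red blood cell genes to 3.50 against 2.47 CPM. The limits had removed macrophage-marker cells from both groups, so the low macrophage sum is partly set by the selection.

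When the rule genes were left out of the clustering of TKO1, the members did not form a cluster of their own. Cluster 0 held 287 of the 692 members among 648 cells, cluster 2 held 138 among 364, and cluster 1 held 112 among 618. Cluster 4, whose leading genes were mitotic, held 51 members among 328 cells, and cluster 6, which was led by *Nefm*, *Nefl*, *Iapp* and *Mycl*, held 13 among 233. Members were 44.4% of the cells within the limits in cluster 0 and 5.63% in cluster 6. The leading genes of cluster 0 were *Fam183b*, *Cfap126*, *1110017D15Rik*, *Nupr1*, *Dynlrb2*, *Nme5*, *Adm*, *Fetub*, *Smim5* and *Ddit3*. The cluster with the most members was thus led by ciliated genes (*Fam183b*, *Cfap126* and *1110017D15Rik*) together with *Nupr1*, *Ddit3*, the rule gene *Adm* and others.

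Some lists were graded with the rule UMIs and others were not. At 1000 UMIs per cell, the hypoxia list was at 5178 CPM in the 1024 TKO1 cells with 0 rule UMIs, 7849 at 1 UMI, 9916 at 2, 10739 at 3 and 13254 in the 177 cells with 4 or more. Glycolysis genes were at 8708 and 21994 CPM at the ends of that range, and metallothioneins at 3005 and 8158 CPM. The mitosis list was at 4226, 2644, 1735, 2106 and 1288 CPM, and the neuroendocrine list between 25633 and 27881 CPM at every step. The 10 genes whose UMIs correlated most with the rule UMIs across 2161 TKO1 cells at that depth, of 3500 compared, were *Aldoa* (Pearson r 0.43), *Bsg* (0.41), *Ldha* (0.38), *Mt1*, *Mif*, *Itm2b*, *Fam162a*, *Eno1*, *Pkm* and *Tpi1* (0.25). *Bsg* encodes the chaperone of lactate transporters. These points are cells of 1 library, and the correlations are descriptions.

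**Figure D4:**
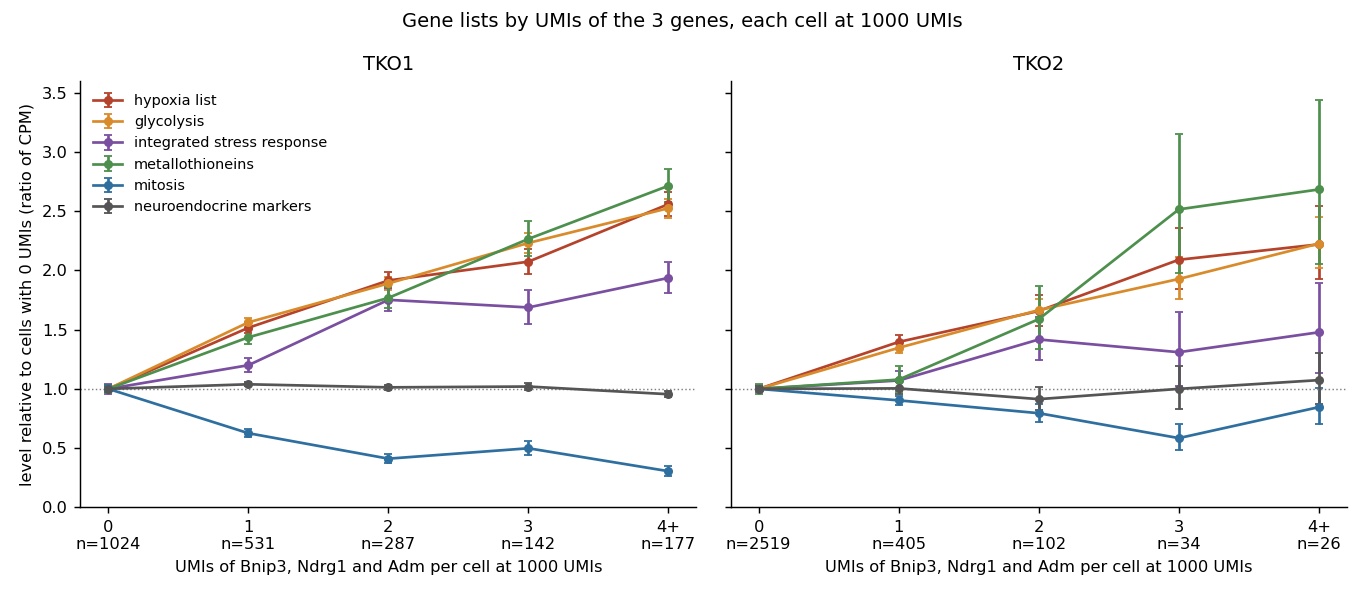
Level of 6 gene lists relative to cells with 0 rule UMIs (ratio of CPM, exact 95% Poisson intervals), by UMIs of *Bnip3*, *Ndrg1* and *Adm* in each cell after thinning to 1000 UMIs, with the number of cells under each step. In TKO1 the hypoxia list runs from 5178 to 13254 CPM and the mitosis list from 4226 to 1288 CPM, while the neuroendocrine list stays level.

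The same rule in TKO2 found fewer such cells, 240 of 3466 within the limits (6.92%, 6.10 to 7.82), although TKO2 was deeper, with medians of 2521 UMIs in its members and 1841 in its 2383 comparison cells. The hypoxia list was again higher: 18 of 32 tested genes were at least 2-fold higher and 0 lower, against 2.16% and 5.05% of 9207 genes, and the median was 1.14. The list summed to 6558 against 3519 CPM. *Selenbp1* (2.52), *Bhlhe40* (2.32), *Egln3* (1.72), *P4ha1* (1.59) and *Pdk1* (1.39) were near their TKO1 ratios. *Vegfa* was at 2.77 (2.06 to 3.48) and *Elf3* at 1.80 (1.40 to 2.18), both with intervals above that of TKO1. *Ddit3* was at 0.48 (-0.07 to 1.00) and *Ldha* at 0.85 (0.79 to 0.91), both below. The intervals of *Nupr1* (0.88, 0.32 to 1.41), *Fam162a* (0.91, 0.67 to 1.15) and *Aldoa* (1.27, 1.20 to 1.35) also lay below those of TKO1. The stress response list as a whole had a median of 0.43 in TKO2, with 21 of 24 tested genes above 0. Of these 24, 2 were at least 2-fold higher and 1 lower. The summed stress response list was at 0.35 (0.27 to 0.43) in TKO2 and 0.91 (0.85 to 0.98) in TKO1. Of the 12 genes named as highest in TKO1, 11 lay above 0 in TKO2 and 8 were at least 2-fold higher. Of the 12 named as lowest, 11 had at least 30 UMIs there and 0 of these were at least 2-fold lower, and the mitosis list had a median of -0.03. Among 4079 genes with at least 100 UMIs in each tumor, 37 were at least 2-fold higher in TKO1 members and 23 in TKO2 members, and 13 were in both lists (35.1% and 56.5% of each), among them *Aldoa*, *Ankrd37*, *Gpi1*, *Igfbp2* and *Slc2a1*. Of 42 and 17 at least 2-fold lower, 2 were shared (*Cd74* and *Nsf*). Whether the ratios differ between the tumors was not tested.

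**Figure D5:**
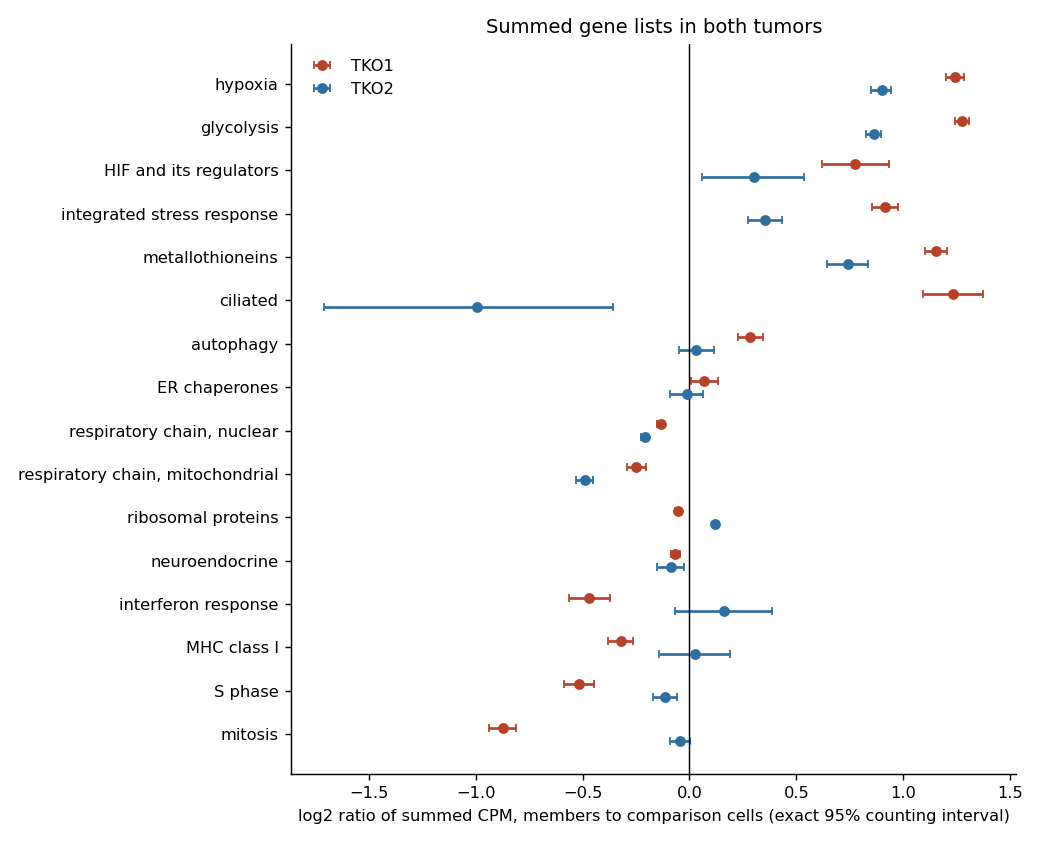
Log2 ratio of summed CPM, members to comparison cells, for 16 gene lists in TKO1 and TKO2, with exact 95% counting intervals. The hypoxia, glycolysis and metallothionein lists lie above 0 in both tumors, the mitosis list is at -0.87 in TKO1 and -0.04 in TKO2, and the ciliated list is at 1.23 and -0.995.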

How the data were processed

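The authors sorted live cells from the tumors of 2 mice, 1 tumor each, and captured them on the 10x Chromium system. The values they deposited are UMI counts for each gene in each barcode, whole and without normalization. The submitters' processing notes name Cell Ranger, Seurat and build mm10. Their versions are not given in the sources used here. TKO1 held 5285038 UMIs and TKO2 8291430. Of 27998 gene identifiers, 27645 had a GENCODE M21 position, and 56 symbols stood on more than 1 identifier.

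UMIs were summed per group of cells and scaled to CPM in Python 3.11.15 (numpy 2.4.6, scipy 1.17.1, pandas 2.3.3). Log2 ratios have exact conditional binomial intervals, CPM exact Poisson and shares exact Clopper-Pearson intervals. Genes with at least 30 UMIs over both groups and outside the 3 rule genes were tested, here meaning compared with a 2-fold limit. A group at 0 was set to a floor of 3 UMIs. Thinning used seed 1. Clusters came from Seurat 5.3.0 in R 4.3.3 (1000 variable genes, 10 principal components, resolution 0.8), TMM factors from edgeR 4.0.16 as a scaling alternative only, and figures from matplotlib 3.10.9. Scrublet (scanpy 1.11.5) called 0 of 3193 TKO1 cells and 1 of 3568 TKO2 cells, so few that its calls were not used. Doublets were kept, and the highest scores were removed as an alternative.

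Named genes are the rule genes, *Nupr1*, the 12 largest ratios in either direction (of genes reaching 100 CPM in members or comparison cells), the members of 34 gene lists and the 10 genes most like the rule genes. *Cd74* and *Nsf*, and the genes named as shared by both tumors, were chosen after their values were seen. Members, lists and tests were chosen with earlier results of these data known. Of the alternatives, 19 were planned and 6 added after seeing the data: removal of cells with *Mki67* or *Top2a*, with 3 or more *Mycl*, with *Ddit3* or *Trib3*, and with macrophage or *Scgb1a1* UMIs, and thinning to 750 or 1500 UMIs. On simulated counts of 8422 genes for TKO1 members against comparison cells, 200 of them given a log2 difference of 1.5, 96.0% of planted genes passed 2-fold, as did 1.09% of unplanted genes and 0 of those with at least 100 UMIs, and 95.8% of intervals held the true value. The values of 1 gene are not reported here.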

Additional observations from a re-analysis of the deposited data

Results flagged for a closer look

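*Ccnb1*, a cyclin of mitotic entry, lay on opposite sides in the tumors. Its log2 ratio of members to comparison cells was -1.22 (-1.63 to -0.83) in TKO1 and 0.29 (0.07 to 0.50) in TKO2. The summed ciliated list was at 1.23 (1.09 to 1.38) in TKO1 and -0.995 (-1.71 to -0.36) in TKO2, where it was scarce (29.6 CPM in members and 58.9 CPM in comparison cells). The summed ribosomal protein list was at -0.06 (-0.07 to -0.04) and 0.12 (0.11 to 0.13). Each difference between the tumors rests on 1 library per tumor and was not tested.

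The barcodes of TKO1 with 500 or fewer detected genes, which were left out of the main comparison, also carried the rule genes. Over 1321 such barcodes, *Bnip3*, *Ndrg1* and *Adm* summed to 902 CPM (834 to 974), against 1147 CPM (1115 to 1179) over all cells within the limits. In TKO2 the values were 183 and 266 CPM. Whether these UMIs come from small cells or from free RNA was not tested.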

How the results depend on the processing

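The limits of these values are the single library per tumor, the reliance of the rule on *Bnip3*, and depth. Genes under 100 UMIs carry wide intervals, and doublets were not removed. Both tumors give members and comparison cells, but no test pairing them by tumor was made.

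The number of members was 692, and 1074 at 2 UMIs, 302 at 5 UMIs, 59 under the rule without *Bnip3*, 1049 without *Ndrg1*, 1064 without *Adm* (the last 3 at 2 UMIs), 251 with more than 1000 detected genes and 268 without cells with a mitosis UMI. The count of genes at least 2-fold higher (223) was 62 at a minimum of 100 UMIs, 928 at 1 UMI, 143 when each cell was thinned to 1000 UMIs first, 125 without cells with a mitosis UMI and 888 under the rule without *Bnip3*. The count at least 2-fold lower (228) was 51 at a minimum of 100 UMIs, 975 at 1 UMI, 149 without cells with a mitosis UMI, 806 under the rule without *Bnip3* and 386 at 5 UMIs. Fewer cells or genes enter most of these. Where cells were thinned first, members were taken at 2 or more rule UMIs, so depth and threshold both changed. The rule without *Bnip3* also changed the comparison cells, to 2781 cells with 0 UMIs of *Ndrg1* and *Adm* but *Bnip3* at 967 CPM. The hypoxia list median (1.29) ran from 0.81 under the rule without *Bnip3* to 1.36 over 23 alternatives, and that of TKO2 (1.14) from 0.85 to 1.31. At fixed depth the summed hypoxia list was at 1.23 for 1000 UMIs and 1.33 for 1500 UMIs. The cause was not tested. The 12 genes named as highest and the 12 named as lowest kept the sign of their ratio under every alternative that gave a value, but 92 of 548 values left the counting interval. Under the rule without *Bnip3*, *Pfkp* was at 0.53, *P4ha1* at 0.78, *Aldoa* at 0.79 and *1110017D15Rik* at 0.75, all under 2-fold. So were *Rrm2* and *Ccnb2* at -0.50, *Cdca8* at -0.95 and *Ube2c* at -0.92. *Cdca8* was at -0.32 without cells with a mitosis UMI, and *Ceacam10* at -0.52 when thinned first. *Ceacam10* was also under 2-fold at 2 UMIs (-0.75), without *Ndrg1* (-0.74) and without *Adm* (-0.77). With comparison cells matched on total UMIs, the hypoxia median was 1.27 and the mitosis median -1.22.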

Other observations

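Genes of chromosome 19 stood slightly apart in TKO1. Members against comparison cells gave a median log2 ratio of -0.26 over the 101 chromosome 19 genes that had 100 UMIs or more, and 5 (4.95%) were at least 2-fold lower, *Anxa1* among them, against 51 of all 4532 genes with as many UMIs. On chromosome 13, 5 of 153 (3.27%) were. The medians of the other chromosomes of TKO1 lay between -0.09 (X) and 0.08 (18). In TKO2 the chromosome 19 median was -0.10 over 204 genes, beside -0.11 on chromosome 16.

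The summed MHC class I list was also lower in TKO1 members, at 3305 CPM against 4133 CPM (log2 ratio -0.32, -0.38 to -0.26). Of 10 tested genes 6 lay below 0 and 4 above 0, and 0 were at least 2-fold lower. *H2-D1* supplied 58.8% of the UMIs. *B2m*, the light chain of these molecules, was at -0.79 (-0.94 to -0.64) and *H2-K1* at -0.35. In TKO2 the list was at 0.03 (-0.14 to 0.19). Immediate early genes, which tissue dissociation can raise, had a median of 0.13 in TKO1, with *Fos* at 0.23, *Jun* at 0.09 and *Fosb* at 0.57. Of the 16 tested, 1 was at least 2-fold higher, *Klf4* (1.26).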
